A study of Mus musculus with 8 samples.

Results

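The enzymes that build serine and hand its carbon to folate were followed in mouse Tregs that had been differentiated from cells of WT and Alox15-/- mice. The 9 genes, Phgdh, Psat1, Psph, Shmt1, Shmt2, Mthfd1, Mthfd1l, Mthfd2 and Tyms, were taken by symbol from the 28239 symbols of the count table. All 9 had a row, and all 9 were among the 12700 genes that passed the filter on low counts. Naive CD4+ T cells were selected from spleens of C57BL/6 mice aged 10 to 12 weeks, either WT or Alox15-/-, and cultured for 2 days with IL-2, TGF-β and beads carrying antibodies to CD3 and CD28. Both groups received the same cytokines and beads, and each held 4 libraries from 4 mice. The WT mice came from one supplier and the Alox15-/- mice, which lack the lipoxygenase in all cells, from another, so that genotype and supplier cannot be told apart. RNA was read by MACE-seq, which counts fragments near the 3′ end of each transcript.

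Serine is made from a glycolytic intermediate in 3 steps, and its side-chain carbon is then passed to tetrahydrofolate, in mitochondria or in the cytosol. The carbon returns from mitochondria as formate and is used in the cytosol for purines, for thymidylate and for the methionine cycle. T cells are known to raise these enzymes strongly after activation, when they grow and divide, and the transcription factors Atf4 and Myc are known inducers of several of the genes.

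Libraries held 3723151 to 9538962 counts in total. Alox15, the targeted gene, was at 70.2, 68.8, 63.4 and 65.0 CPM (counts scaled to library size, with TMM factors) in the libraries labelled Alox15-/- and at 1.87, 2.55, 7.73 and 8.98 CPM in those labelled WT. The targeted gene was therefore higher under the Alox15-/- label, with a log2 fold change of 3.65 and a standard error of 0.299. Its p was 1.08e-05 by the quasi-likelihood test of edgeR, adjusted by Benjamini–Hochberg over all genes tested, and every adjusted p below is of this kind. Which part of the gene is deleted in these mice is not given in the sources used here, and reads near a 3′ end can lie outside a deleted part, so the counts do not settle whether the labels are exchanged. A positive difference below means a higher level under the Alox15-/- label, and every direction holds for the labels only. Summed markers of CD4 T cells and Tregs lay between 3399.8 and 3722 CPM in the libraries labelled Alox15-/- and between 3397 and 4121 CPM in those labelled WT. Among these markers Cd4 was lower under the Alox15-/- label without overlap, at 209 to 296 against 326 to 350.1 CPM (log2 fold change -0.32, adjusted p = 0.358, edgeR). Cd3g was higher without overlap, at 151 to 169 against 110.4 to 139 CPM (0.31, adjusted p = 0.294, edgeR). The groups of the other listed markers overlapped, where 5.25% of all genes tested did not overlap. Foxp3, the defining transcription factor of Tregs, was at 71.4, 95, 92.6 and 113 CPM under the Alox15-/- label and at 109, 101, 194 and 92.9 CPM under the WT label. Its groups overlapped, and its log2 fold change was -0.42 (standard error 0.203, 95% interval -0.85 to 0.01, unadjusted p = 0.0558, adjusted p = 0.655, edgeR). Erythroid markers summed to between 903 and 3473 CPM against 34.5 to 123 CPM, and markers of myeloid cells to between 43.2 and 322 CPM against 8.83 to 15.1 CPM. Of the listed erythroid genes 5 of 8 were called higher, as were 5 of 8 myeloid genes, 5 of 8 genes of NK and γδ T cells and 7 of 11 genes of mast cells, basophils and eosinophils, while 0 of the 12 CD4 T cell genes and 0 of the 2 CD8 genes were called and 1 of 6 B cell genes was called lower. In such bulk RNA fewer cells of a type and less RNA per cell cannot be told apart.

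All genes below are placed on GRCm38 by the GENCODE annotation. The serine synthesis genes are Phgdh (ENSMUSG00000053398.11, chr3:98313170-98339990, minus strand), Psat1 (ENSMUSG00000024640.9, chr19:15904678-15947337, minus strand) and Psph (ENSMUSG00000029446.14, chr5:129765558-129787449, minus strand). The hydroxymethyltransferase genes are Shmt1 (ENSMUSG00000020534.14, chr11:60788104-60811718, minus strand) and Shmt2 (ENSMUSG00000025403.5, chr10:127517123-127522444, minus strand). The others are Mthfd1 (ENSMUSG00000021048.7, chr12:76255298-76319803, plus strand), Mthfd1l (ENSMUSG00000040675.17, chr10:3973118-4167081, plus strand), Mthfd2 (ENSMUSG00000005667.8, chr6:83305691-83325908, minus strand) and Tyms (ENSMUSG00000025747.12, chr5:30058202-30073617, minus strand). Shmt1 shares its chromosome with Alox15, 9.56 Mb away. Of the 419 tested genes within 20 Mb of Alox15, 22 were called (5.25%), beside 1.24% of all genes tested, and the part of this in the level of Shmt1 was not tested. At its 3′ end Shmt1 overlaps Smcr8 on the other strand over 184 bases, and whether the counting used strand is not given in the sources used here.

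The 250 bases before the RefSeq start (GRCm38.p6) are shown for 4 of the genes. Phgdh and Shmt1 were the enzymes with the highest correlation of deviations from the group means, Mthfd1 was the only one whose groups did not overlap, and Tyms was the one that varied most between libraries of a group. These 4 were chosen after their values were seen. Capitals mark CCAAT, the GC box GGGCGG and the E-box CACGTG on either strand.
Phgdh promoter, chr3:98339970-98340219, minus strand: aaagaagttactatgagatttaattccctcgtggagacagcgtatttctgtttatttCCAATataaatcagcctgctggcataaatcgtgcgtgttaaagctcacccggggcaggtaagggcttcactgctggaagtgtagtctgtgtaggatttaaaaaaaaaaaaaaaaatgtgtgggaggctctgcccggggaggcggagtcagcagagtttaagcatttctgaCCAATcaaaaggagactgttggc
Shmt1 promoter, chr11:60811266-60811515, minus strand: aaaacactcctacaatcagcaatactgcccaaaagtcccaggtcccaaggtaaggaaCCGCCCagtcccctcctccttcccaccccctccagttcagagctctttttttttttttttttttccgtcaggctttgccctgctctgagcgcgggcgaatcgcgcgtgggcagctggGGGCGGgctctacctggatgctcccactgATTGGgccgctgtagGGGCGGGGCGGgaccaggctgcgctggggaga
Mthfd1 promoter, chr12:76254982-76255231, plus strand: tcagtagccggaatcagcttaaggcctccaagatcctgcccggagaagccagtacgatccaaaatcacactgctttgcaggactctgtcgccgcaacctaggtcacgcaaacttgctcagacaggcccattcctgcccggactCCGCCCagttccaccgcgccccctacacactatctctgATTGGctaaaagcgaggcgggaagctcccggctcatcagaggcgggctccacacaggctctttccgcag
Tyms promoter, chr5:30073626-30073875, minus strand: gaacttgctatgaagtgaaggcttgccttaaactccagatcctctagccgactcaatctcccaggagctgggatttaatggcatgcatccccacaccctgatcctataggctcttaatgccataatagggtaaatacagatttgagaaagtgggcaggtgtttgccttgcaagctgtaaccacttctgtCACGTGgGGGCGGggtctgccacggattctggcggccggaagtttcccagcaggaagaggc
The Phgdh window held 2 CCAAT matches, the nearer one beginning 23 bases before the start, and no GC box. Shmt1 held 4 GC boxes, 2 of which overlap each other, and 1 CCAAT match. Mthfd1 held 1 of each, and Tyms 1 GC box and 1 E-box that begin 54 and 61 bases before the start. Over 32851 windows of this length, CCAAT was found in 33.8%, GGGCGG in 32.7% and CACGTG in 6.02%. Of the 9 enzymes, which have 10 windows because Psat1 has 2 starts, 6 held CCAAT, 6 held GGGCGG and 1, Tyms, held CACGTG. The composite C/EBP-Atf4 element TGATGNAAT was found in 0.816% of all windows and the E2F elements TTTGGCGC and TTTCCCGC in 0.417% and 0.895%, and these letters were in none of the windows of the 9 enzymes.

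No enzyme of the pathway passed the adjusted threshold of 0.05 in either direction. In the edgeR test 0 of 9 were called, beside 1.24% of all genes tested (158 of 12700), and 0 of 9 had an unadjusted p under 0.05, beside 7.84% of all genes. DESeq2 and limma-voom called 0 of the 9 as well, with 0 under an unadjusted p of 0.05. The log2 fold changes ran from -0.17 to 0.17 with a median of -0.077, and 6 of 9 were below 0, where the median of all genes tested was -0.007 and 51.8% were below 0. The 95% intervals of the 9 log2 fold changes all lay between -0.40 and 0.38, which is a fold of 0.76 to 1.30. Each single interval is narrower than these outer bounds, and changes within the interval of an enzyme were not resolved by 4 libraries against 4. Between 332 and 5542 reads were counted on an enzyme in each library, so that the counting error was at most 5.49% of a value, while the biological coefficient of variation over all genes was 14.5%.

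**Figure D1:**
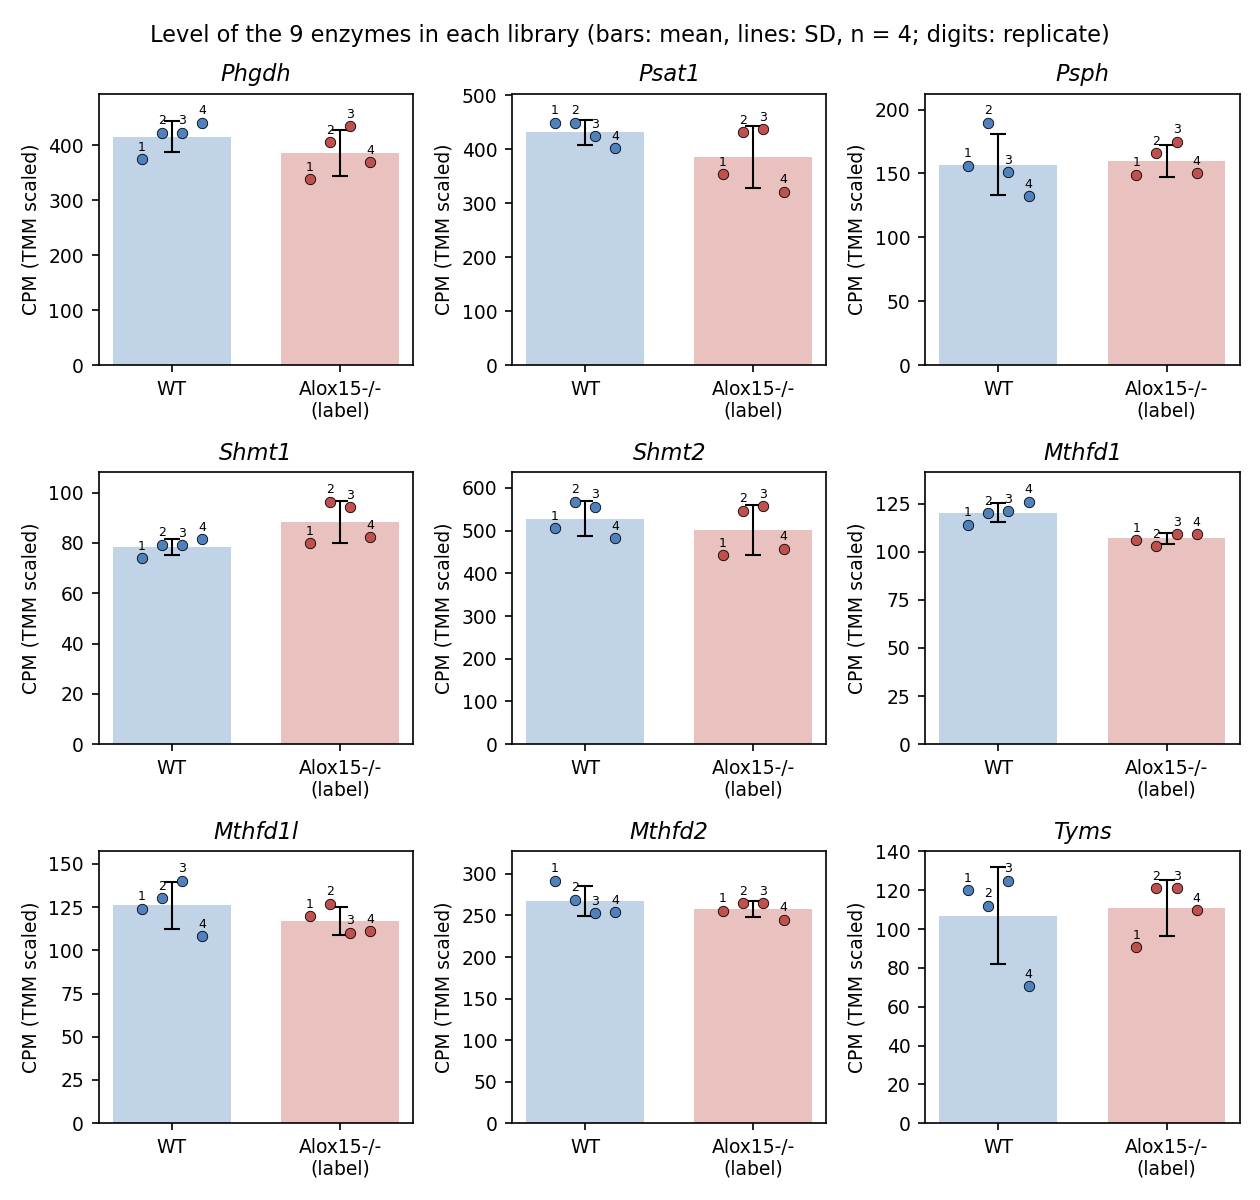
Level of each enzyme in CPM (vertical axes from 0) in the 4 WT libraries (blue) and the 4 libraries labelled Alox15-/- (red). Bars are means, lines SD (n = 4), points single libraries with their replicate number. Only for Mthfd1 do all 4 points of one group lie below all 4 of the other, and Tyms has its lowest point in WT replicate 4.

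The 3 enzymes that make serine overlapped between the groups. Phgdh codes for the dehydrogenase that draws 3-phosphoglycerate out of glycolysis, the first step of the route. It was at 338, 405, 434 and 369 CPM in the libraries labelled Alox15-/- (replicates 1 to 4) and at 375, 423, 423 and 441 CPM in those labelled WT. The ranges overlapped, with the lowest value in replicate 1 labelled Alox15-/- and the highest in WT replicate 4. The mean was 386 ± 41.7 CPM (SD, n = 4) against 415 ± 28.1 CPM (SD, n = 4), and the log2 fold change was -0.10 (standard error 0.101, 95% interval -0.32 to 0.11, adjusted p = 0.858, edgeR). Psat1, the transaminase that takes nitrogen from glutamate for the second step, was at 354, 431, 437 and 321 CPM under the Alox15-/- label and at 449, 449, 424 and 402 CPM under the WT label. Replicates 2 and 3 labelled Alox15-/- lay among the WT values, whereas replicates 1 and 4 lay below all of them. Its log2 fold change was -0.16 (standard error 0.110, 95% interval -0.40 to 0.07, adjusted p = 0.782, edgeR). Psph, the phosphatase that releases serine, was at 149, 166, 175 and 150.1 CPM against 156, 189.8, 151 and 132 CPM. Both the highest and the lowest Psph values were WT libraries, so that the WT range enclosed the other group, and the log2 fold change was 0.02 (standard error 0.115, 95% interval -0.22 to 0.27, adjusted p = 0.981, edgeR).

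Reads of Phgdh could be shared with pseudogene copies of its transcript. In the GENCODE transcripts 17 pseudogenes match the Phgdh transcript over at least 400 bases at an identity of 90.4% to 98.7%, and 11 of them had a row in the count table. The copies held between 31.5% and 35.8% of the counts on Phgdh and these copies together. Most of this share fell on Gm9347, at 139 ± 12.5 CPM (SD, n = 4) under the Alox15-/- label and 140 ± 10.9 CPM (SD, n = 4) under the WT label, and on Gm7901, at 40.6 ± 3.79 and 45.7 ± 5.49 CPM (SD, n = 4 each). They match Phgdh over 1608 and 1597 bases, at 97.4% and 98.7% identity, and the matches end at bases 1760 and 1753 of the 1893 bases of the transcript. The sum of Phgdh and its copies was 527, 601, 642 and 538 CPM under the Alox15-/- label and 559.8, 640.2, 617 and 645 CPM under the WT label. With this sum in place of Phgdh the log2 fold change was -0.09 (standard error 0.0966, 95% interval -0.30 to 0.11, adjusted p = 0.871, edgeR), and the exact permutation test over the 8 libraries gave p = 0.229 (two-sided, smallest possible 0.0286). Psat1 has 1 such copy, with 0 to 3 counts per library, and the copy of Tyms had no row. No pseudogene matched the other 6 enzymes by this rule.

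The first transfer of carbon to folate was measured on both sides of the mitochondrial membrane. Shmt2 codes for the mitochondrial serine hydroxymethyltransferase, which splits serine into glycine and a folate-bound carbon. It was at 442, 547, 557 and 458 CPM under the Alox15-/- label and at 506, 568, 556 and 483 CPM under the WT label. The groups overlapped, replicates 1 and 4 labelled Alox15-/- being the 2 lowest libraries, and the log2 fold change was -0.08 (standard error 0.104, 95% interval -0.30 to 0.15, adjusted p = 0.908, edgeR). Shmt1, its cytosolic counterpart, was at 79.8, 96.4, 94.1 and 82.4 CPM against 73.9, 79.3, 79.1 and 81.4 CPM. Of the 4 libraries labelled Alox15-/-, 3 lay above every WT library and replicate 1 lay below WT replicate 4. With 0.17 Shmt1 had the highest log2 fold change of the 9 enzymes (standard error 0.101, 95% interval -0.05 to 0.38, adjusted p = 0.751, edgeR). Smcr8, whose 3′ end overlaps that of Shmt1, was at 28.4 ± 4.19 and 30.2 ± 2.58 CPM (SD, n = 4 each), with a log2 fold change of -0.09 (adjusted p = 0.917, edgeR).

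The mitochondrial enzymes that carry the unit on to formate overlapped between the groups. Mthfd2, the mitochondrial dehydrogenase and cyclohydrolase that oxidises the folate-bound carbon, was at 256, 265, 265 and 245 CPM under the Alox15-/- label and at 292, 269, 253 and 254 CPM under the WT label. It spread little, with coefficients of variation of 3.7% and 6.82% in the groups, and its log2 fold change was -0.05 (standard error 0.0903, 95% interval -0.24 to 0.14, adjusted p = 0.93, edgeR). Mthfd1l, which releases formate in mitochondria, was at 119.7, 127, 110.2 and 111 CPM against 124, 130.2, 140.3 and 108 CPM. WT libraries held both its highest and its lowest value, replicates 3 and 4, and the log2 fold change was -0.11 (standard error 0.105, 95% interval -0.33 to 0.12, adjusted p = 0.865, edgeR).

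In the cytosol Mthfd1 re-attaches formate to folate and interconverts the folate forms that purine and thymidylate synthesis draw on. It was at 106, 103, 109 and 109 CPM in the libraries labelled Alox15-/- and at 114, 120.1, 121 and 126 CPM in those labelled WT. Every library labelled Alox15-/- lay below every WT library, and Mthfd1 was the only one of the 9 enzymes whose groups did not overlap, beside 5.25% of all genes tested. The means were 107 ± 2.93 and 120.2 ± 5.01 CPM (SD, n = 4 each), and the log2 fold change of -0.17 (standard error 0.0905, 95% interval -0.36 to 0.02) did not pass the threshold (unadjusted p = 0.0779, adjusted p = 0.699, edgeR). The absence of overlap held under the scaling of DESeq2, under upper quartile scaling and with library totals alone. Tyms, which uses the folate carbon to turn deoxyuridylate into thymidylate for DNA, was at 90.8, 121, 121 and 109.6 CPM under the Alox15-/- label and at 120.2, 112, 125 and 70.6 CPM under the WT label. Replicate 4 set the low end of the WT group, and the coefficient of variation of Tyms was 23.3% there, the widest of the 9 enzymes in either group. Its log2 fold change was 0.04 (standard error 0.157, 95% interval -0.29 to 0.38, adjusted p = 0.97, edgeR) and turned to -0.105 without WT replicate 4.

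**Figure D2:**
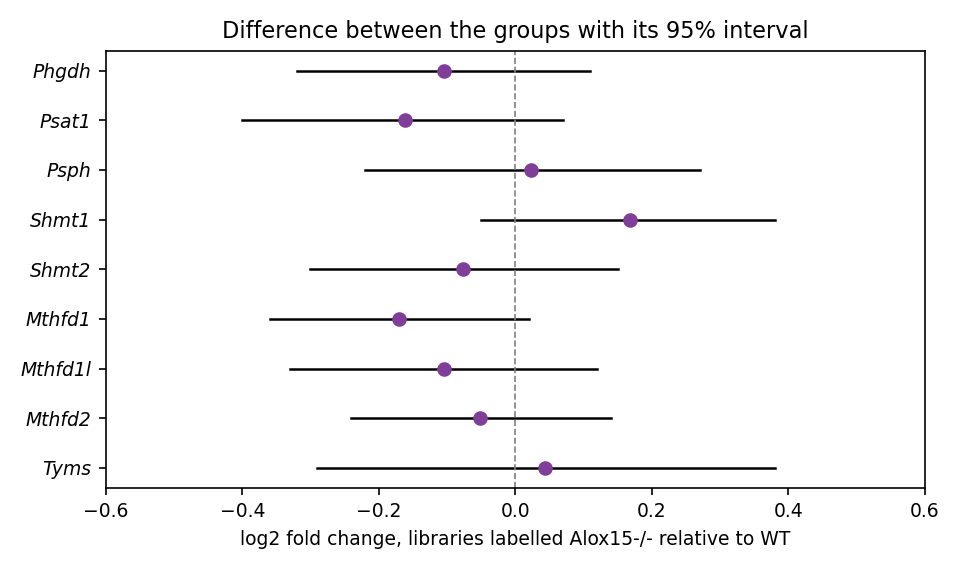
Difference of each enzyme between the groups as log2 fold change (horizontal axis, libraries labelled Alox15-/- relative to WT). Points are the estimates of the edgeR fit over all genes and lines their 95% intervals, and all 9 lines cross 0, which the dashed line marks.

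The ratios of Shmt1 to 4 of the other enzymes did not overlap between the groups. Within each library the ratio of 1 enzyme to another does not depend on the scaling, although its size depends on how well the assay captures each 3′ end. Of the 36 ratios among the 9 enzymes 4 did not overlap between the groups, where the same held for 5.96% of the ratios between all pairs of genes tested, and all 4 had Shmt1 in them. The 36 ratios share genes and libraries and were read together, so that no test was applied. All 4 rest on the level of Shmt1, whose own groups overlapped, so that they are not 4 separate results. The ratio of Phgdh to Shmt1 was 4.24, 4.2, 4.61 and 4.47 in the libraries labelled Alox15-/- and 5.08, 5.33, 5.35 and 5.41 in those labelled WT. That of Psat1 to Shmt1 was 4.43, 4.47, 4.65 and 3.89 against 6.08, 5.66, 5.36 and 4.94. On the log2 scale these differences were -0.27 and -0.34. The ratio of Shmt1 to Mthfd1 was 0.753, 0.937, 0.867 and 0.754 against 0.649, 0.66, 0.654 and 0.646, a log2 difference of 0.34. The ratio of Shmt1 to Shmt2, the cytosolic to the mitochondrial enzyme, was 0.18, 0.176, 0.169 and 0.18 against 0.146, 0.14, 0.142 and 0.169. Its groups were separated in the third decimal of the log2 ratio only, at -2.566 in replicate 3 labelled Alox15-/- and -2.568 in WT replicate 4.

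**Figure D3:**
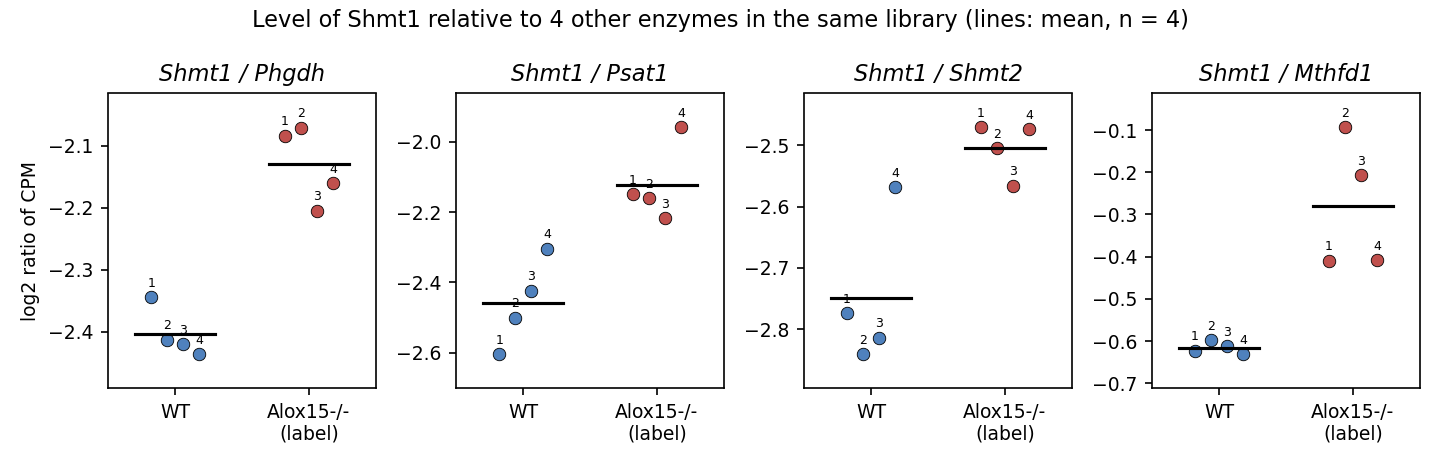
Log2 ratio of the CPM of Shmt1 to that of Phgdh, Psat1, Shmt2 and Mthfd1 in the same library (vertical axes, each with its own range). Points are the 4 WT libraries (blue) and the 4 libraries labelled Alox15-/- (red) with their replicate number, and lines are group means. The red points lie above the blue ones in every panel, with almost no gap for Shmt1 over Shmt2.

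Among the libraries labelled Alox15-/-, replicate 3 had the highest value for 6 of the 9 enzymes and replicate 1 the lowest for 5. Among the WT libraries, replicate 4 had the lowest value for 5 enzymes and the highest for 3. Replicates 2 and 3 labelled Alox15-/- had most erythroid markers, at 3301 and 3473 CPM against 1091 and 903 CPM in replicates 1 and 4. They also had most myeloid markers, at 322 and 197 CPM against 77.8 and 43.2 CPM. Markers of NK and γδ T cells were at 160.1 and 141 CPM there against 138 and 88.6 CPM, and those of mast cells, basophils and eosinophils at 393 and 227 CPM against 239 and 153 CPM. The part of these cells in the enzymes' levels was not tested. Pearson's r of log2 CPM, each taken as its deviation from the group mean over the 8 libraries, was above 0.7 for 4 of the 36 pairs of enzymes and below 0 for 8, with a median of 0.37 over the pairs. These correlations are descriptions, since all genes share the libraries and their depth. The highest was that of Phgdh with Shmt1 at 0.92 (Spearman's rho 0.88), which was 0.84 without the 2 libraries farthest from the median of Phgdh. Psat1 with Shmt2 reached 0.83 (rho 0.86; 0.80 without 2 libraries), Psph with Shmt2 0.77 (rho 0.88; 0.85) and Shmt1 with Shmt2 0.77 (rho 0.74; 0.59). The value of Shmt1 with Shmt2 rested on 1 group, since r was 0.99 over the 4 libraries labelled Alox15-/- and 0.05 over the 4 WT libraries. When the levels were taken as they are, group difference included, r was 0.33 for Phgdh with Shmt1 and 0.83 for Psat1 with Shmt2. Mthfd1 had r below 0 in 6 of its 8 pairs, the lowest with Mthfd2 at -0.80 (rho -0.60; -0.49) and the highest with Phgdh at 0.44 (rho 0.50; -0.00). Its coefficients of variation were 2.74% under the Alox15-/- label and 4.17% under the WT label, beside a counting error of 5.12% in the library with fewest Mthfd1 reads, replicate 2 labelled Alox15-/-.

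The pattern of Tyms over the libraries resembled that of genes of dividing cells. Among 7298 other tested genes with a mean of at least 20 CPM, those closest to Tyms included Bub3, a mitotic checkpoint gene (r = 0.98, rho 0.81; 0.88 without 2 libraries), and Asf1b, a histone chaperone (0.98, rho 0.79; 0.77). Asf1b was at 61, 82.6, 78.8 and 73.8 CPM under the Alox15-/- label and at 80, 82.7, 94.1 and 54.5 CPM under the WT label, lowest in the same WT replicate 4 as Tyms. All 20 listed S phase genes had their lowest WT value in that library, and 16 of 20 their highest in WT replicate 3. Over the 8 libraries the deviation of Tyms correlated with that of the mean of these 20 genes at r = 0.90 (rho 0.69; 0.68 without WT replicates 3 and 4), as did Mthfd1l at 0.87 (rho 0.76; 0.49) and Shmt2 at 0.72 (rho 0.74; 0.82). For Psph r was 0.64 (rho 0.64; 0.73), for Psat1 0.42 (rho 0.43; 0.57) and for Shmt1 0.23 (rho 0.38; 0.81). For Phgdh r was 0.14 (rho 0.26; 0.68), for Mthfd2 0.13 (rho -0.10; 0.14) and for Mthfd1 -0.44 (rho -0.21; -0.15).

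The genes nearest to the other 2 enzymes examined this way were of mixed kinds. Those closest to Phgdh included Prdx5, a peroxiredoxin (r = 0.98, rho 0.98; 0.97 without 2 libraries), and Med10, a Mediator subunit (0.96, rho 0.88; 0.89). Those closest to Mthfd2 were Nudcd3 (0.97, rho 0.90; 0.95), Gm6222 (0.97, rho 0.98; 0.94) and Rpl6l (0.96, rho 0.98; 0.98). The 3 highest of 7298 coefficients over 8 libraries are high by the choice itself.

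**Figure D4:**
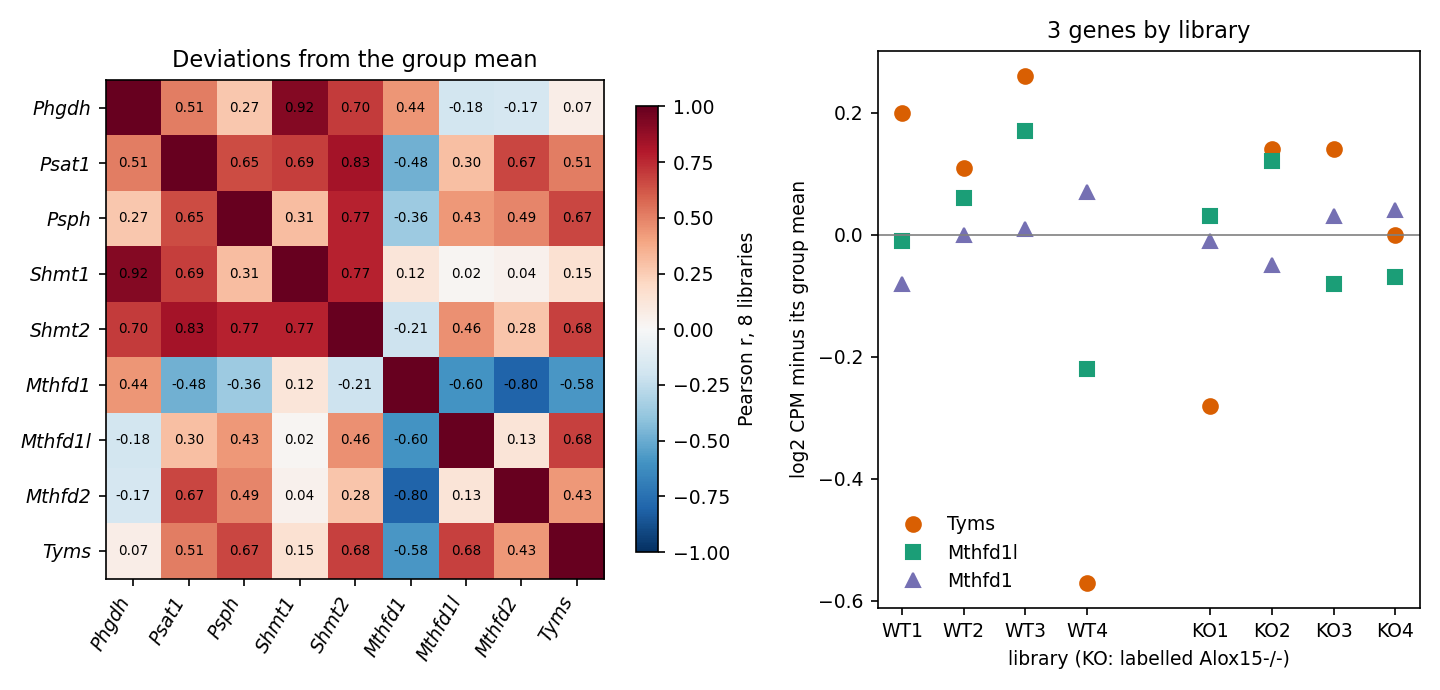
Left, Pearson's r between the deviations of the 9 enzymes from their group means of log2 CPM over 8 libraries (colour and printed value). Right, the deviations of Tyms, Mthfd1l and Mthfd1 in each library, where Tyms and Mthfd1l share their lowest point in WT replicate 4 and Mthfd1 has its highest value there.

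The surrounding pathways were read from 9 lists of 121 genes in all, of which 107 were tested. In the edgeR test 0 of the 107 were called, beside 1.24% of all genes tested, and 7 had an unadjusted p under 0.05, beside 7.84%. DESeq2 and limma-voom called 0 too. The median log2 fold change of the 107 was -0.089, with 75 below 0 and 32 above, where 51.8% of all genes were below 0, and the smallest adjusted p was 0.237. The groups did not overlap for 6 of the 107, 5 of them lower under the Alox15-/- label, beside 5.25% of all genes. The lists share no gene with the 9 enzymes, and their genes are not independent of each other, so that the shares are counts and not tests.

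Folate handling outside the 9 enzymes had 13 tested genes, 7 of them below 0, with a median of -0.125. With single libraries left out this median lay between -0.145 and -0.051, nearest 0 without WT replicate 2, and it was smaller by over 1.5 times without any 1 of the libraries other than replicate 4 of each group. The genes ran from Mthfd2l, a second mitochondrial dehydrogenase measured at 1.43 to 3.9 CPM (log2 fold change -0.49, standard error 0.388, adjusted p = 0.826), to Mthfs, which returns stored formyl-folate to use (0.33, standard error 0.218, adjusted p = 0.779). Of the 4 glycine cleavage genes Gldc and Amt were filtered out as low, and Gcsh and Dld were at log2 fold changes of -0.12 and -0.07, with a median between -0.151 and -0.038 when single libraries were left out. The 13 tested genes of serine transport and other serine use had a median of 0.024, between Srr, the serine racemase (-0.32), and Slc1a4, a serine transporter (0.10). Sfxn1, a mitochondrial serine carrier, was at 129, 136, 129 and 114 CPM under the Alox15-/- label and at 146, 142, 139.6 and 141 CPM under the WT label, without overlap (log2 fold change -0.17, unadjusted p = 0.0915, adjusted p = 0.72, edgeR). The methionine cycle had a median of -0.167 over 9 tested genes, between Ahcy, which removes S-adenosylhomocysteine (-0.31, standard error 0.113, unadjusted p = 0.0143, adjusted p = 0.422), and Cth, which makes cysteine (0.13). This median was -0.093 without replicate 3 and -0.096 without replicate 4 labelled Alox15-/-.

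Purine synthesis, which takes 2 carbons from formyl-folate, had all 12 tested genes at or below 0, where 51.8% of all genes tested were below 0. The median of the 12 genes was -0.145 and 0 were called. The range ran from Impdh1, which commits inosinate to guanine nucleotides (-0.25, standard error 0.104, unadjusted p = 0.0289, adjusted p = 0.561), to Pfas at -0.00 (3 decimals: -0.002), and Impdh1 and Gart were, like Sfxn1, among the 6 surrounding genes whose groups did not overlap. Impdh1 was at 59.3, 50.8, 61.3 and 58.2 CPM under the Alox15-/- label and at 66.8, 63.9, 68.7 and 74.5 CPM under the WT label. Pyrimidine and deoxynucleotide synthesis had 6 of 11 genes below 0 and a median of -0.12, between Cad, the first enzyme of pyrimidine synthesis (-0.25, unadjusted p = 0.0496, adjusted p = 0.636), and Cmpk1 (0.08). This median was 0.004 without WT replicate 3 and -0.058 without WT replicate 2, and -0.022 and -0.051 without replicates 1 and 4 labelled Alox15-/-. Of the 20 S phase genes 19 were below 0, beside 51.8% of all genes tested. The S phase genes had a median of -0.098 and 0 called, between Cdt1 (-0.23, adjusted p = 0.789) and Ccne2 (0.11, adjusted p = 0.92). The median of the S phase genes was -0.009 without WT replicate 3 and -0.184 without WT replicate 4.

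Atf4 and Myc, known inducers of the pathway, overlapped between the groups. Atf4, named here for its role, was at 464, 453, 493 and 483 CPM under the Alox15-/- label and at 407, 432, 485 and 489 CPM under the WT label (log2 fold change 0.06, standard error 0.0931, 95% interval -0.14 to 0.26, adjusted p = 0.914). Its list of 18 tested genes had 9 at or above 0, 9 below 0 and a median of -0.014. It ran from Eif2ak3, a kinase upstream of Atf4 (-0.35, unadjusted p = 0.0496, adjusted p = 0.636), to Cebpb, a stress-induced transcription factor (0.52, standard error 0.197, unadjusted p = 0.0186, adjusted p = 0.474). Eif2ak3 and Cebpb did not overlap between the groups. Cebpb is also a gene of myeloid cells, whose markers were higher in the same libraries, and their part in its level was not tested. Myc, also named for its role, was at 196, 142, 132 and 123 CPM against 130.2, 141, 117 and 209 CPM (log2 fold change -0.01, standard error 0.175, 95% interval -0.38 to 0.37, adjusted p = 0.998). Among the 9 tested regulators, with a median of -0.146, the lowest was Ehmt2, a histone methyltransferase known to act on serine synthesis genes, and the highest was Max (0.18), the partner of Myc. The median was -0.08 without WT replicate 3 and -0.094 without WT replicate 4. Ehmt2 was at 61.8, 68.3, 70.5 and 66.4 CPM under the Alox15-/- label and at 80.2, 88.7, 97.6 and 74.7 CPM under the WT label. Its groups did not overlap, and it had the smallest p of the 107 genes (log2 fold change -0.36, standard error 0.109, 95% interval -0.59 to -0.12, unadjusted p = 0.00508, adjusted p = 0.237, edgeR).

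**Figure D5:**
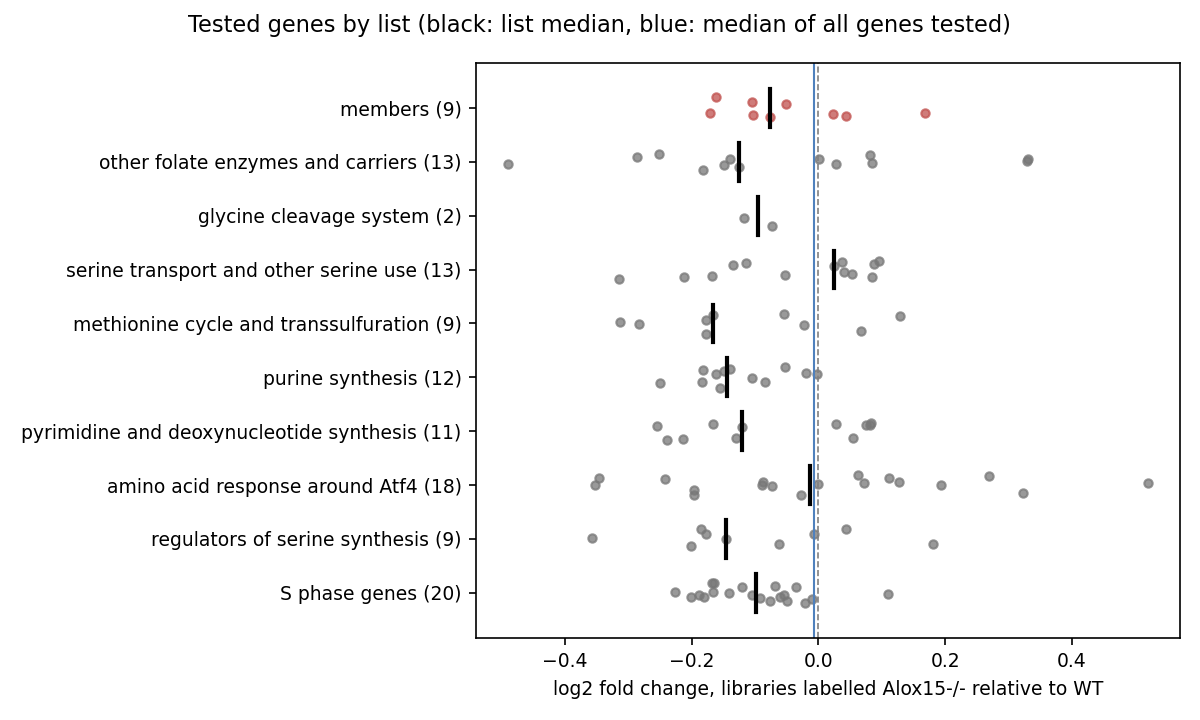
Log2 fold change (horizontal axis, libraries labelled Alox15-/- relative to WT) of the 9 enzymes (red) and of the tested genes of 9 surrounding lists (grey), with the number of tested genes in brackets. Black bars are list medians and the blue line is the median of all genes tested, -0.007. All purine genes lie at or left of 0, and the genes around Atf4 lie on both sides.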

How the data were processed

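The deposited table holds raw MACE-seq counts for each gene symbol, not normalized by the authors. The submitters' processing notes name Bowtie, edgeR and the build GRCm38, and the counting tool is not given in the sources used here. The methods name a MACE kit and the labels a small RNA kit. Tests measure the spread between 4 libraries per group. Genes that reached 2 CPM in 4 or more libraries were scaled by TMM and compared with the two-sided quasi-likelihood test of edgeR 4.0.16 in R 4.3.3, group as the only term, with Benjamini–Hochberg adjustment over all 12700 genes and a threshold of 0.05. Standard errors are the log2 fold change divided by the square root of F. The fit was also run on simulated counts with known changes. All genes had the same dispersion there, so that the differing spread of real genes was not tested.

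The 9 enzymes, the gene lists and the naming rule were chosen with earlier results of these data known. Named genes are Alox15, the 9 enzymes, the highest and lowest gene of each list, and the 3 genes closest to Phgdh, Mthfd2 and Tyms, of which 2 are not reported here. Foxp3, Atf4 and Myc were also named for their roles, Gldc and Amt as filtered out, and Smcr8 and the copies of Phgdh for shared reads. Gart, Sfxn1, Cd4 and Cd3g were named after their values were seen. Correlations use log2 CPM with a prior count of 0.5. Copies were sought with blastn 2.17.0 in GENCODE M21 transcripts at 90% identity or more, and promoters come from RefSeq. Alternatives were DESeq2 1.42.0, limma 3.58.1 (voom), a robust fit, 3 scalings, 3 filters, the replicate number as a block, and each library left out in turn.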

Additional observations from a re-analysis of the deposited data

How the results depend on the processing

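The number of enzymes called was 0 under all 18 alternatives, and their median log2 fold change stayed below 0, between -0.119 and -0.035. Of 164 values of single enzymes under alternatives, 0 passed the threshold (lowest adjusted p 0.647) and 3 changed sign: Psph was -0.018 without replicate 3 labelled Alox15-/- and -0.047 without WT replicate 4, and Tyms was -0.105 without WT replicate 4. With single libraries left out Psph ranged from -0.047 to 0.125 and Tyms from -0.105 to 0.131, while the others kept their sign: Phgdh lay between -0.159 and -0.044, Psat1 between -0.223 and -0.082, Shmt2 between -0.125 and -0.02, Mthfd1l between -0.168 and -0.042, Mthfd2 between -0.073 and -0.007, Mthfd1 between -0.197 and -0.144 and Shmt1 between 0.125 and 0.213. The values nearest 0 came without replicate 1 labelled Alox15-/- for Phgdh and Shmt2, replicate 4 labelled Alox15-/- for Psat1, WT replicate 3 for Mthfd1l and WT replicate 1 for Mthfd2. The medians of serine transport and use (-0.054 to 0.025) and of the Atf4 list (-0.035 to 0.045) changed sign with single libraries left out. The scalings moved the median of all genes by at most 0.028. The 158 genes called among all genes became 388 with no filter and 100 with at least 10 counts in every library. With single libraries left out they ranged from 86 to 173, with 95, 86 and 93 without replicates 1, 2 and 3 labelled Alox15-/- and 105 without WT replicate 2. Fewer libraries enter these fits, and otherwise the cause was not tested. With the replicate number as a block 146 genes were called, 135 of them also without it, and 0 enzymes. Same-numbered libraries correlated between -0.166 and 0.156 in their deviations from the group means, so the numbers were not taken to pair the mice. The sum of Phgdh and its copies was an alternative chosen after seeing the data. So were the other scalings and left-out libraries for the overlap of groups and for the correlations. Shmt1 joined Mthfd1 in the absence of overlap without replicate 1 labelled Alox15-/- or without WT replicate 4. This was fixed by the values, since only these libraries overlapped for Shmt1. Leaving out a library can remove an overlap but not bring one to Mthfd1. The correlation of Phgdh with Shmt1 stayed between 0.87 and 0.99. With 4 libraries a group, changes within the 95% interval of each enzyme were not resolved. The narrowest interval was that of Mthfd2, a fold of 0.844 to 1.10, and the widest that of Tyms, 0.817 to 1.30.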
